A study of Arabidopsis thaliana with 8 samples.

Results

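COR15A, COR15B and COR47 are cold-response genes of Arabidopsis thaliana, and each was read by 1 probe set that the platform annotation ties to that gene alone. They were chosen by gene name, with earlier results of these data known. Shares over all probe sets are therefore given below as background, not as a test of that choice. The members are 3 of 13350 genes with such a probe set, among 22746 probe sets tested. Their loci are AT2G42540 for COR15A, AT2G42530 for COR15B and AT1G20440 for COR47. COR15B and COR15A are direct neighbours on chromosome 2 in the reference gene table, and COR47 lies on chromosome 1 next to the dehydrin gene ERD10.

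The arrays measured RNA of whole seedlings of 4 genotypes, with 2 biological replicates each. Wild type (Col-0) stood beside a gbf1 mutant and 2 double mutants, gbf1 hy5 and gbf1 hyh, which both carry the gbf1 mutation too. All seedlings were 4 days old and had grown at 22 °C in continuous white light (20 µmol/m2/s) on medium with 1% sucrose, and the plates had first stood at 4 °C for 4 days. None of the groups was treated with cold after that. The labels state an ecotype for wild type only and name no allele, so differences of background and effects of the mutations cannot be told apart.

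Cold acclimation raises the freezing tolerance of plants, and a main route to it runs through the CBF (DREB1) transcription factors, which bind the CRT/DRE element in the promoters of COR genes. COR15A and COR15B encode hydrophilic proteins of the chloroplast stroma that protect membranes during freezing, and COR47 encodes a dehydrin, a protein of the same broad late embryogenesis abundant (LEA) class. GBF1, HY5 and HYH belong to the bZIP factors of seedling light signalling, which bind G-box type elements, and HY5 is also known to act in the cold response.

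Values are log2 signals counted from the median that each probe set has over the 8 arrays, and differences are those of 2 genotype means on that scale. The deposited values hold no expression level, so levels of different genes were not compared, and the labelled tissue could not be checked by the presence of markers. A difference was called at an adjusted p under 0.05 in limma, adjusted by the Benjamini-Hochberg method over all probe sets tested. Intervals are 95% intervals of the same fit. In RNA of whole seedlings, fewer cells of a type and less RNA per cell cannot be told apart.

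HYH was the one mutated gene that could be checked, and it fell by 2.87 in gbf1 hyh (limma adjusted p = 5.1e-05) and by 1.90 in gbf1 hy5 (adjusted p = 0.000698) against wild type. HYH was thus low in both double mutants. It was 0.97 higher in gbf1 hy5 than in gbf1 hyh (adjusted p = 0.0166), a call lost under 4 of 15 alternatives. Averaged over 18 hybridisation spike-in probe sets, gbf1 replicate 2 (1.79) and gbf1 hyh replicate 2 (1.5) stood high, while the remaining 6 arrays lay from -0.522 to 0.268. The replicate arrays differed with an SD of 0.366 in gbf1 and 0.350 in gbf1 hyh, against 0.236 in wild type and 0.239 in gbf1 hy5. Results for the members are therefore also given without these arrays where that changes a call.

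COR15B was the member that differed most between genotypes. Its signal was 1.18 and 0.711 on the wild type arrays and -1.61 and -0.816 on the gbf1 arrays. It was -0.244 and 0.0391 on the gbf1 hy5 arrays and 0.853 and -0.0391 on the gbf1 hyh arrays. Wild type was high, gbf1 was low on both arrays, and the double mutants lay between, with gbf1 hyh replicate 1 inside the range of wild type.

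**Figure D1:**
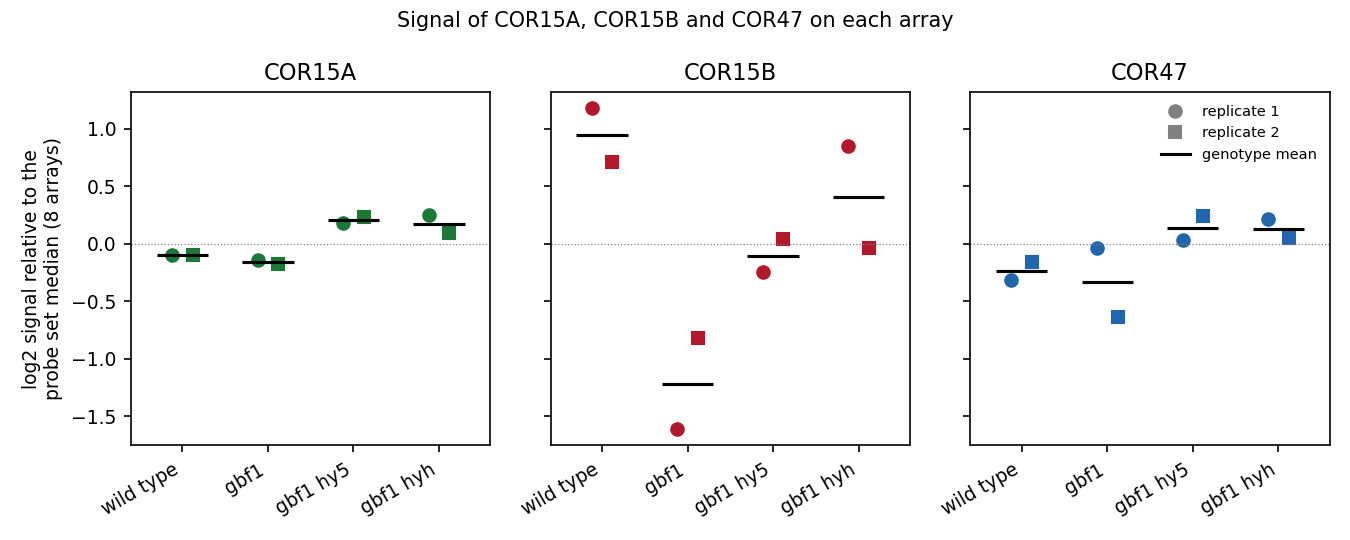
Each panel plots 1 gene, with the log2 signal relative to the probe set median on the y axis and the 4 genotypes on the x axis. Circles are replicate 1, squares replicate 2 and black lines genotype means; COR15B spans 2.79 over the 8 arrays, COR47 0.877 and COR15A 0.429.

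By genotype mean, COR15B stood in the order wild type (0.945 ± 0.331, SD, n = 2), gbf1 hyh (0.407 ± 0.631), gbf1 hy5 (-0.102 ± 0.200) and gbf1 (-1.21 ± 0.563). No pair of neighbours in that order passed the test. Between gbf1 hyh and wild type it was -0.54 (SE 0.334, limma adjusted p = 0.661), that between gbf1 hy5 and gbf1 hyh was -0.51 (adjusted p = 0.582), and that between gbf1 hy5 and gbf1 was 1.11 (adjusted p = 0.109). Over all 4 genotypes the moderated F test called COR15B (F = 15.2, adjusted p = 0.0224), as it did 4.92% of all probe sets. That call was made in 3 of the 8 refits that omit 1 array, and ended without either wild type array (0.10 and 0.0665), gbf1 replicate 1 (0.0652) or either gbf1 hy5 array (0.0779 and 0.0768).

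In gbf1 against wild type, COR15B fell by 2.16 (SE 0.334, interval -2.91 to -1.4, limma adjusted p = 0.0331), which is 4.47-fold lower. It was the 1 member called lower of 3, against 0.193% of all probe sets called lower and 0.418% called in either direction. Both gbf1 arrays lay below both wild type arrays, as they did in 18% of all probe sets. By size its difference ranked 19 of 22746, and 0.0791% of probe sets differed by more. As COR15B was chosen with earlier results of these data known, this rank and these shares only describe it.

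The gap between the 2 gbf1 arrays of COR15B was 0.796, and 4.07% of all probe sets had a larger gap in gbf1. The residual SD of COR15B over the 4 genotypes was 0.465, with a median of 0.173 over all probe sets, and 1.68% of probe sets varied more. The call in gbf1 was made in 3 of the 8 refits that omit 1 array. It ended without wild type replicate 1 (adjusted p = 0.313), wild type replicate 2 (0.213), gbf1 replicate 1 (0.0793) or either gbf1 hy5 array (0.0898), while the difference stayed between -2.56 and -1.76. Without the 2 arrays high in spike-in signal, gbf1 is 1 array, and the value was -2.56. In every refit that leaves a genotype with 1 array, that array is assumed to vary like the other genotypes.

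Adding hyh to gbf1 went with a higher COR15B signal. COR15B rose by 1.62 in gbf1 hyh against gbf1 (SE 0.334, interval 0.87 to 2.37, limma adjusted p = 0.0404), which is 3.08-fold. It was the 1 member called higher of 3, against 1.01% of all probe sets, and 0.519% of probe sets differed by more. Both gbf1 hyh arrays lay above both gbf1 arrays, as in 21.1% of probe sets. This comparison and that of gbf1 with wild type use the same 2 gbf1 arrays.

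The gap between the gbf1 hyh arrays was 0.892, and 2.22% of probe sets had a larger one there. The call was made in 2 of the 8 refits that omit 1 array, those without gbf1 replicate 2 or gbf1 hyh replicate 2, and the others gave an adjusted p between 0.0758 and 0.123. The difference was 1.17 without gbf1 hyh replicate 1 and 2.07 without gbf1 hyh replicate 2. Without the 2 arrays high in spike-in signal it was 2.47, a value of 1 array against 1.

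Adding hy5 to gbf1 gave a COR15B difference of 1.11 (SE 0.334, interval 0.36 to 1.87), which did not pass (limma adjusted p = 0.109, unadjusted p = 0.00867). Both gbf1 hy5 arrays lay above both gbf1 arrays, as in 25.2% of probe sets. Without the 2 arrays high in spike-in signal this difference was 1.51 and passed (adjusted p = 0.00923), where gbf1 is 1 array assumed to vary like the other genotypes. Against wild type, gbf1 hy5 differed by -1.05 (interval -1.80 to -0.29, adjusted p = 0.194), with both arrays below, as in 19.7% of probe sets. That difference passed in the fit of these 2 genotypes alone (adjusted p = 0.0176) and with array weights (0.0376).

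**Figure D2:**
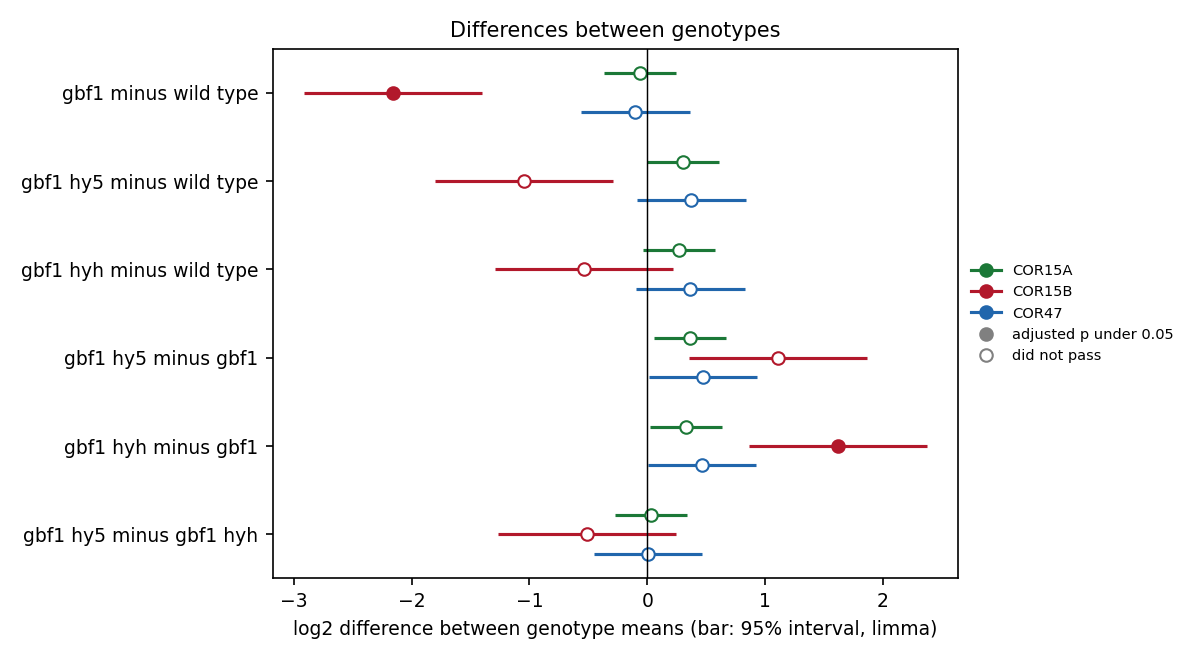
The x axis gives the log2 difference between 2 genotype means with its 95% interval, and the y axis the 6 comparisons, for COR15A, COR15B and COR47. Filled points passed at an adjusted p under 0.05: COR15B in gbf1 minus wild type (-2.16) and in gbf1 hyh minus gbf1 (1.62).

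COR15A, the tandem neighbour of COR15B, varied little. Its signal was -0.0978 on both wild type arrays and -0.137 and -0.180 on the gbf1 arrays. It was 0.183 and 0.231 on the gbf1 hy5 arrays and 0.250 and 0.0978 on the gbf1 hyh arrays. All 4 double mutant arrays lay above all 4 wild type and gbf1 arrays. The deposited values of the wild type replicates were equal, which was so for 46 of 22746 probe sets.

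No difference of COR15A passed the test. In gbf1 against wild type it was -0.061 (SE 0.135, interval -0.37 to 0.24, limma adjusted p = 0.957), an interval that does not reach that of COR15B (-2.91 to -1.4), although a difference between the 2 genes was not tested. Against wild type, COR15A differed by 0.30 in gbf1 hy5 (interval -0.00074 to 0.61, adjusted p = 0.410) and by 0.27 in gbf1 hyh (interval -0.034 to 0.58, adjusted p = 0.559). Against gbf1 it differed by 0.37 in gbf1 hy5 (unadjusted p = 0.0241, adjusted p = 0.196) and by 0.33 in gbf1 hyh (unadjusted p = 0.0361, adjusted p = 0.302).

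Unadjusted p-values under 0.05 were found for 17.2% of probe sets in gbf1 hy5 against gbf1 and for 14.3% in gbf1 hyh against gbf1. The arrays of gbf1 hy5 lay above those of wild type in 26.8% of probe sets, and those of gbf1 hyh in 23%. How many probe sets separate all 4 double mutant arrays from the other arrays was not counted. Its range over the 8 arrays, 0.429, was below the median range of all probe sets, 0.604. Its residual SD, 0.0581, was smaller than that of 96.9% of probe sets, and limma's shared prior gives it a larger error than its own arrays do.

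COR47, the dehydrin gene, had higher means in the double mutants than in wild type and gbf1, as COR15A did. Its signal was -0.312 and -0.158 on the wild type arrays and -0.0359 and -0.634 on the gbf1 arrays. It was 0.0359 and 0.243 on the gbf1 hy5 arrays and 0.211 and 0.0516 on the gbf1 hyh arrays. The 4 double mutant arrays lay above the wild type and gbf1 arrays, the closest values being 0.0359 and -0.0359. Both gbf1 hy5 arrays lay above both wild type arrays in 26.8% of all probe sets and above both gbf1 arrays in 25.2%. For gbf1 hyh these shares were 23% and 21.1%, and the joint share was not counted. The gbf1 arrays of COR47 overlapped wild type, with gbf1 replicate 2, an array of high spike-in signal, lowest of all.

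No difference of COR47 passed either. It was 0.37 (SE 0.204, interval -0.085 to 0.83, limma adjusted p = 0.561) in gbf1 hy5 and 0.37 (interval -0.093 to 0.83, adjusted p = 0.611) in gbf1 hyh against wild type. Against gbf1 it was 0.47 in both, with adjusted p = 0.273 for gbf1 hy5 and 0.341 for gbf1 hyh. In gbf1 against wild type the value was -0.10 (interval -0.56 to 0.36, adjusted p = 0.952), and it was 0.20 without gbf1 replicate 2. The difference of gbf1 hy5 from gbf1 rested on which gbf1 array was used. It was 0.18 against gbf1 replicate 1 alone and 0.77 against gbf1 replicate 2 alone, the array high in spike-in signal, where it passed (adjusted p = 0.0481) with gbf1 as 1 array.

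The double mutants did not differ from each other in any member by the test. In gbf1 hy5 minus gbf1 hyh the limma value was 0.033 for COR15A (interval -0.27 to 0.34), -0.51 for COR15B (interval -1.26 to 0.24) and 0.0080 for COR47 (interval -0.45 to 0.47). In this comparison 2.77% of all probe sets were called.

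Between members, Pearson's r over the 8 arrays was 0.842 for COR15A with COR47, 0.309 for COR15A with COR15B and 0.149 for COR15B with COR47. These values describe 8 arrays that fall into 4 genotypes. The tandem pair COR15A and COR15B was thus less alike over the arrays than COR15A and COR47.

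Of the other effector genes listed beside the members, 2 of 21 had a probe set of their own in the annotation used. COR27, a cold-regulated gene that also links light and the circadian clock, was -0.756 and -0.419 on the wild type arrays and -1.11 and -1.34 on the gbf1 arrays. It was 0.785 and 0.821 in gbf1 hy5 and 0.419 and 0.530 in gbf1 hyh, so that the double mutants were above both other genotypes. How many probe sets show this was not counted. Both arrays of a double mutant lay above both arrays of wild type or of gbf1 in 21.1% to 26.8% of probe sets. Against wild type, COR27 rose by 1.39 in gbf1 hy5 (SE 0.164, limma adjusted p = 0.00329) and by 1.06 in gbf1 hyh (adjusted p = 0.017). Against gbf1 it rose by 2.03 (adjusted p = 0.000273) and 1.70 (adjusted p = 0.000927), and both of these calls held in all 8 refits that omit 1 array. Of the calls against wild type, that of gbf1 hy5 ended without gbf1 hy5 replicate 2 (adjusted p = 0.0528). That of gbf1 hyh ended without either wild type array (0.183 and 0.0692), either gbf1 hy5 array (0.0526) or gbf1 hyh replicate 2 (0.109). The background of calls was 2.18% and 1.28% in the comparisons with wild type and 4.45% and 2.51% in those with gbf1.

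AT4G33980, the other listed effector locus measured, was lowest in gbf1. Its signal was -0.0372 and 0.0372 in wild type, -1.34 and -1.73 in gbf1, 0.197 and 0.106 in gbf1 hy5, and 0.754 and -0.0996 in gbf1 hyh. It fell by 1.53 in gbf1 against wild type (limma adjusted p = 0.0479) and rose by 1.69 (adjusted p = 0.00724) and 1.86 (adjusted p = 0.00662) in gbf1 hy5 and gbf1 hyh against gbf1. The fall in gbf1 was called in 2 of 8 refits that omit 1 array, those without either gbf1 hyh array, and the adjusted p reached 0.405 without wild type replicate 2. The rise in gbf1 hy5 ended without either gbf1 hy5 array (0.0791 and 0.0668), and that in gbf1 hyh in the fit of gbf1 and gbf1 hyh alone (0.111).

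Dehydrins other than COR47 are hydrophilic proteins that accumulate in drying or chilled tissue, and 5 of 9 listed were measured. LTI30 was 0.423 and 0.300 in wild type, 0.713 and 0.443 in gbf1, -1.67 and -0.890 in gbf1 hy5, and -0.300 and -0.393 in gbf1 hyh. In contrast to COR47, which passed in no comparison, both gbf1 hy5 arrays were the lowest of the 8. Both gbf1 hy5 arrays lay below both wild type arrays in 19.7% of all probe sets, and the share lowest of the 8 was not counted. Of all probe sets, 2.18% were called in gbf1 hy5 against wild type and 4.45% in gbf1 hy5 against gbf1. LTI30 fell by 1.64 in gbf1 hy5 against wild type (SE 0.235, limma adjusted p = 0.00887) and by 1.86 against gbf1 (adjusted p = 0.00314). The first of these ended without either wild type array, at an adjusted p of 0.0966 and 0.0938.

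The other dehydrin genes HIRD11, LEA, AT4G38410 and AT4G39130 passed in no comparison, with values between -0.30 and 0.13. The median difference of the 5 dehydrin genes was between -0.077 and 0.023 in the 6 comparisons, and that of all probe sets was between -0.0069 and 0.030.

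A list of 8 loci headed by the low-temperature and salt responsive genes RCI2A and RCI2B had 5 measured members, all of them without a symbol in the reference table. AT4G30650 was 0.283 and 0.166 in wild type, -1.70 and -2.69 in gbf1, -0.319 and -0.132 in gbf1 hy5, and 0.132 and 0.573 in gbf1 hyh. Like COR15B, it was lowest on both gbf1 arrays (a pattern not counted over all probe sets). It fell by 2.42 in gbf1 against wild type (SE 0.289, limma adjusted p = 0.0106), and rose by 1.97 (adjusted p = 0.00615) in gbf1 hy5 and by 2.55 (adjusted p = 0.00243) in gbf1 hyh against gbf1. The fall in gbf1 was called in 6 of 8 refits that omit 1 array, and ended without either wild type array (adjusted p = 0.16 and 0.149). The rise in gbf1 hy5 ended without either gbf1 hy5 array (0.0536 and 0.0733). In fits of the compared genotypes alone, the fall in gbf1 (0.0765) and the rise in gbf1 hyh (0.0672) did not pass.

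Its chromosome neighbour AT4G30660 was 0.247 and 0.0184 in wild type, -0.770 and -0.948 in gbf1, -0.0184 and -0.151 in gbf1 hy5, and 0.820 and 0.379 in gbf1 hyh. In gbf1 against wild type its value of -0.99 missed the threshold (limma adjusted p = 0.0671). Against gbf1 it rose by 0.77 in gbf1 hy5 (adjusted p = 0.0476) and by 1.46 in gbf1 hyh (adjusted p = 0.00413), and the first was called in 2 of 8 refits that omit 1 array, those without either gbf1 hyh array. The second did not pass in the fit of gbf1 and gbf1 hyh alone (0.0761). AT1G57550, AT2G24040 and AT2G38905 passed in no comparison, with values between -0.13 and 0.38.

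**Figure D3:**
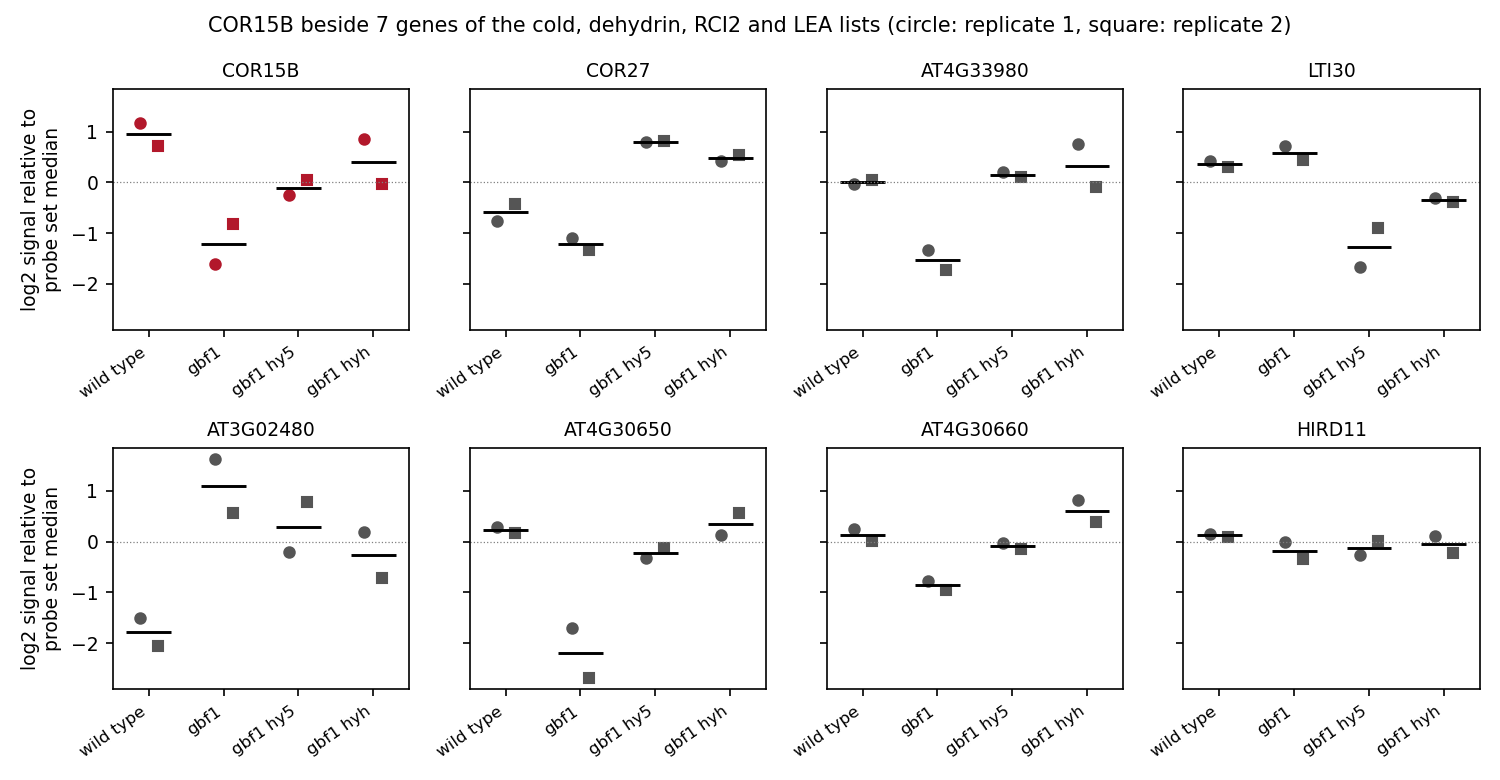
Each panel plots 1 gene, with the log2 signal relative to the probe set median on the y axis and the 4 genotypes on the x axis; circles are replicate 1, squares replicate 2 and lines genotype means. COR15B, COR27, AT4G33980, AT4G30650 and AT4G30660 are lowest on both gbf1 arrays, LTI30 is lowest in gbf1 hy5, and AT3G02480 is lowest in wild type. Apart from HIRD11, which passed in no comparison, the genes beside COR15B are listed genes called in some comparison, so they do not stand for their lists. How many probe sets are lowest on both gbf1 arrays was not counted.

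The list of loci drawn up for LEA proteins, the broad class that holds COR15A and COR15B, had 14 of 17 members measured. Of these, 1 rose in gbf1 against wild type, beside 0.224% of all probe sets called higher, and 13 did not pass, and the median difference was 0.31, with 12 values above 0, beside a median of 0.0058 over all probe sets. The gene that rose, AT3G02480, was -1.51 and -2.05 in wild type, 1.62 and 0.567 in gbf1, -0.198 and 0.773 in gbf1 hy5, and 0.198 and -0.711 in gbf1 hyh. Wild type was low and gbf1 high, the opposite order to COR15B in these genotypes. AT3G02480 rose by 2.87 in gbf1 (SE 0.437, limma adjusted p = 0.0312) and by 2.07 in gbf1 hy5 (adjusted p = 0.0485) against wild type. The first call ended without either wild type array (0.192 and 0.339), gbf1 replicate 1 (0.0775) or either gbf1 hy5 array (0.0568). The second ended without either wild type array (0.167 and 0.379) or either gbf1 hy5 array (0.097 and 0.339).

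In the other comparisons no LEA locus of this list passed, apart from AT3G02480 in gbf1 hy5 against wild type. In that comparison 2.18% of all probe sets were called. The median difference of the 14 loci was 0.16 in gbf1 hy5 and 0.26 in gbf1 hyh against wild type, beside 0.024 and 0.030 over all probe sets. Against gbf1 it was -0.17 and -0.13, beside 0.012 and 0.021. In gbf1 hy5 minus gbf1 hyh it was -0.062, beside -0.0069.

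Regulators of the cold response were covered by 2 of 24 listed genes, ZAT10, a zinc finger protein of stress responses, and EIN3, an ethylene-signalling factor that represses CBF genes. Neither passed in any comparison. The largest value was -0.68 for EIN3 in gbf1 hy5 minus gbf1 hyh (SE 0.186, limma adjusted p = 0.107). None of the 19 listed genes of the abscisic acid response, the CBF genes or ICE1 had a single-gene probe set in the annotation used, and they were not analysed here. That annotation ties no gene to 8730 of the tested probe sets, so the array itself may still carry these genes.

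The measured chromosome neighbours passed in no comparison. AT2G42520, next to COR15B, differed by -0.36 in gbf1 against wild type (SE 0.330, limma adjusted p = 0.853), where COR15B fell by 2.16. AT2G42560, separated from COR15A by AT2G42550 and also counted in the LEA list above, differed by 0.36 (adjusted p = 0.502). AT1G20430, next to COR47, differed by -0.29 (adjusted p = 0.752).

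The genes most like each member were taken as the 5 with the highest Pearson r with it over the 8 arrays. Candidates were probe sets with 1 gene and a range of at least that of COR47. Because r was taken over these same arrays, a pattern shared with the member is built into the choice and is no separate evidence. For COR15B these were AT2G39920 (r = 0.959), IQD22 (0.906), AT3G62550 (0.885), AT4G32340 (0.884) and AT3G02190 (0.883). All 5 were lowest on a gbf1 array. AT3G62550 fell by 1.63 in gbf1 against wild type (limma adjusted p = 0.00347), AT4G32340 by 1.15 (adjusted p = 0.00872) and IQD22, an IQ-domain gene, by 1.05 (adjusted p = 0.0353). These 3 also rose in both double mutants against gbf1, AT3G62550 by 1.19 and 1.58, AT4G32340 by 0.93 and 1.15, and IQD22 by 0.83 and 1.21, while COR15B passed in gbf1 hyh alone. Without either wild type array each of the 3 falls in gbf1 missed the threshold, with an adjusted p up to 0.339 for IQD22, which also missed it without either gbf1 array or either gbf1 hy5 array. The rise of IQD22 in gbf1 hy5 was called in 3 of 8 refits that omit 1 array, with an adjusted p up to 0.198 without gbf1 hy5 replicate 2. That of AT4G32340 in gbf1 hy5 ended without either gbf1 hy5 array (0.0642 and 0.0565). AT2G39920 passed in no comparison and had the order of COR15B in all genotypes, with means that put wild type highest.

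For COR15A the genes most alike were AT3G18880 (r = 0.974), AT3G28320 (0.960), AT2G15560 (0.956), FDH (0.954), the formate dehydrogenase gene, and AT3G07640 (0.949). Their sizes differed from that of COR15A, which is partly built into the choice. Candidates needed a range of at least 0.877, while COR15A itself has a range of 0.429. AT3G28320 rose by 4.32 and AT2G15560 by 4.47 in gbf1 hy5 against wild type (limma adjusted p = 4.23e-05 and 3.85e-06), where COR15A differed by 0.30. The others did not pass there, at 0.57 for AT3G18880 (adjusted p = 0.138), 0.61 for FDH (0.0966) and 0.51 for AT3G07640 (0.214). AT3G18880, the gene with the highest r, passed in no comparison.

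For COR47 they were WLIM1 (r = 0.971), AT4G29360 (0.958), AT4G12830 (0.951), At1g78690p (0.947) and AT1G03250 (0.947). None of these passed in any comparison. Each had its lowest value on gbf1 replicate 2, as COR47 did, and without that array r was between 0.858 and 0.948. For COR15B, r without it was between 0.903 and 0.957.

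**Figure D4:**
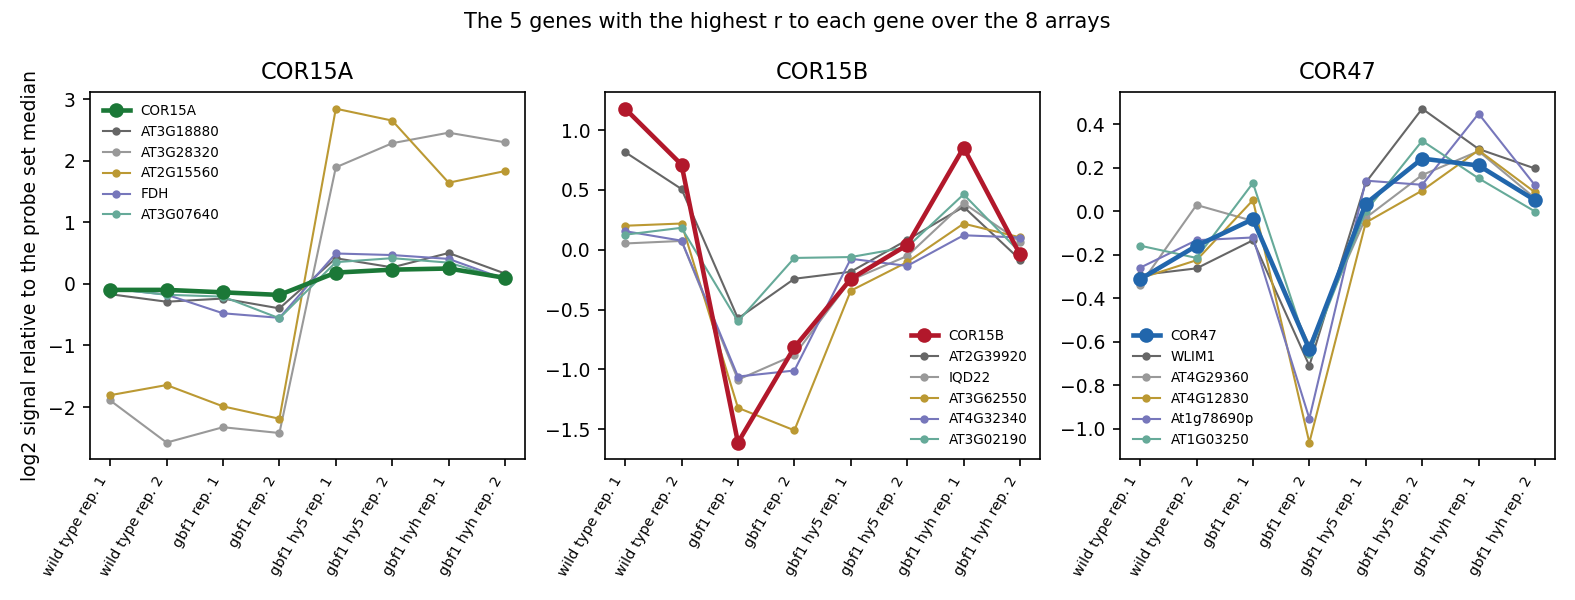
Each panel plots 1 member (thick line) and its 5 most alike genes (thin lines), with the log2 signal relative to the probe set median on the y axis and the 8 arrays on the x axis. The thin lines were picked by r over these same arrays, so they resemble the member by choice. The COR15B group is lowest in gbf1, the COR15A group steps up in the double mutants, and the COR47 group has its lowest point on gbf1 replicate 2.

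Of 5 root hair markers 2 were measured, and their mean lay between 1.06 and 1.4 on the gbf1 arrays, between -0.414 and -0.285 in wild type, between -0.226 and -0.210 in gbf1 hy5 and between 0.0735 and 0.423 in gbf1 hyh. EXPA18, a root hair expansin gene, rose by 1.98 in gbf1 against wild type (limma adjusted p = 0.00173), also in all 8 refits that omit 1 array, and EXPA7 differed by 1.18 (adjusted p = 0.0933). Of 7 leaf mesophyll markers 3 LHCB4 genes were measured, with means between 0.346 and 0.373 in gbf1, between -0.0871 and 0.0697 in wild type, between -0.704 and -0.681 in gbf1 hy5 and between -0.0278 and -0.0085 in gbf1 hyh. None of the 3 passed in gbf1 against wild type, and they did not share a direction there, at -0.089 for LHCB4.1, 0.39 for LHCB4.2 and 0.81 for LHCB4.3 (adjusted p = 0.936, 0.603 and 0.0966). In gbf1 hy5 against wild type LHCB4.2 fell by 1.89 (adjusted p = 0.00113), while LHCB4.1 at -0.38 and LHCB4.3 at 0.22 did not pass. None of 9 seed markers had a probe set of its own. The part of these tissue markers in the COR15B result was not tested.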

How the data were processed

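The 8 arrays were used as deposited. Per the series design text the authors applied RMA in GeneSpring, and the submitters' processing notes name RMA with no version. The deposited log2 values have a median of 0 over the 8 arrays in every one of 22810 probe sets (within 5e-07), so they give signals relative to that median. No source used here states the log base, so base 2 follows RMA's standard output. The 64 control probe sets were left out.

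Genes were named through the platform annotation and a TAIR10.1 gene table, and 13513 tested probe sets had 1 gene, 503 several and 8730 none. A planned search for promoter motifs was not run. The model (limma 3.58.1 in R 4.3.3) had 1 mean for each of 4 genotypes over the 8 arrays and no replicate term. It had 4 degrees of freedom for the residual and 5.124 from the prior, and the procedure was tested on simulated data. The labels call the replicates biological, and p-values measure only the spread between these samples. The number of arrays limits the precision. Of the 6 comparisons, gbf1 hy5 against gbf1 hyh was added to those of the design text.

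The members and lists were chosen with earlier results of these data known. Named list genes were all measured ones where a list had at most 8 measured, and otherwise those called. Alternatives were quantile normalisation, a robust prior, array weights, a replicate block, a spike-in covariate, fits of fewer arrays and each array left out. The spike-in covariate and the high spike-in arrays rest on the 18 hybridisation control probe sets.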

Additional observations from a re-analysis of the deposited data

How the results depend on the processing

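For the 3 members, 18 differences and 3 tests over genotypes were recomputed under 312 combinations of result and alternative, of which 276 kept direction and side of the threshold, 21 no longer passed, 5 newly passed and 10 changed sign. The fall of COR15B in gbf1 against wild type (-2.16) was -2.67 after quantile normalisation (adjusted p = 0.0528) and did not pass in the fit of both genotypes alone (-2.16, adjusted p = 0.0865). With 1 array left out it ranged from -2.56 to -1.76. Its rise in gbf1 hyh against gbf1 (1.62) was 1.99 after quantile normalisation (adjusted p = 0.095), 1.62 with array weights (adjusted p = 0.0748) and 1.62 in the fit of both genotypes alone (adjusted p = 0.222), and ranged from 1.17 to 2.07 with 1 array left out. The adjusted p of COR15B over the 4 genotypes ranged from 0.0138 to 0.10 with 1 array left out. Without the 2 arrays high in spike-in signal, COR15B passed in gbf1 hy5 against wild type (-1.05) and against gbf1 (1.51, with gbf1 as 1 array), and the first also passed with array weights and in the fit of both genotypes alone (-1.05 in each). COR47 in gbf1 hy5 against gbf1 ranged from 0.18 to 0.77 with 1 array left out.

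Values that changed sign were all uncalled. COR47 in gbf1 against wild type was 0.054 after quantile normalisation, 0.014 with the spike-in covariate and 0.20 without both high spike-in arrays, and ranged from -0.40 to 0.20 with 1 array left out. COR47 in gbf1 hy5 against gbf1 hyh was -0.076 and -0.072 under the last 2 of these, and -0.095 to 0.11 with 1 array left out. COR15A in the same comparison was -0.043 without both high spike-in arrays, and -0.043 to 0.11 with 1 array left out. Of these changes, the cause was not tested.

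Labels number the replicates but name no shared batch, and the replicate differences of the genotypes correlated between -0.113 and 0.336, so the numbers were not taken as pairs. With the replicate block, COR15B was at -2.16 (adjusted p = 0.0382) in gbf1 against wild type and 1.62 (adjusted p = 0.0433) in gbf1 hyh against gbf1, and the block changed no other call of the members. The counts of called probe sets moved from 95 to between 9 and 181 for gbf1 against wild type, from 495 to between 88 and 1320 for gbf1 hy5 and from 292 to between 68 and 529 for gbf1 hyh. They moved from 1012 to between 241 and 1568 for gbf1 hy5 against gbf1, from 571 to between 90 and 1191 for gbf1 hyh against gbf1, and from 631 to between 162 and 1071 between the double mutants. With 2 arrays a genotype, a p that misses the threshold does not show that a gene was unchanged. Of 51 calls of HYH, list, marker and alike genes, run under the same alternatives after their values were seen, 21 passed under every one and 30 were lost under at least 1. Of the lost ones, 25 were lost without some array and 19 when only both compared genotypes were fitted, and no value changed sign.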

Other observations

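LEA4-5, a late embryogenesis abundant gene counted in the LEA list above, was named here after its values were seen. Its signal was -0.714 and -0.622 in wild type, 1.26 and 0.249 in gbf1, -0.354 and -0.0155 in gbf1 hy5, and 0.580 and 0.0155 in gbf1 hyh. Both arrays of every mutant lay above both wild type arrays. In all probe sets this was so for gbf1 hy5 in 26.8% and for gbf1 hyh in 23%. No such share is given here for gbf1 or for the mutants together. The difference of LEA4-5 between gbf1 and wild type was 1.42 (SE 0.312) and did not pass (limma adjusted p = 0.129). Those of gbf1 hy5 (0.48, adjusted p = 0.666) and gbf1 hyh (0.97, adjusted p = 0.267) from wild type did not pass either.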
